A study of Mus musculus with 24 samples.

Results

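TBR2+ cells of the E15.5 mouse cortex, isolated by cell sorting and labelled as intermediate progenitors, were compared between a conditional Prdm16 knockout (KO) and its control (WT). The comparison holds the 8 libraries whose titles name TBR2+ cells, 4 KO and 4 WT, of 24 RNA-seq libraries in all; the other 16 come from PAX6+ cells, labelled as radial glia, and from PAX6-TBR2- cells, described as neurons, of the same 2 genotypes. KO embryos carried Emx1Ires-Cre with Prdm16flox/flox, and WT embryos carried Prdm16 flox/flox without Cre, so the floxed alleles were common to both groups. Emx1 drives Cre in the dorsal telencephalic lineage, which includes radial glia, so the allele can recombine before a cell becomes an intermediate progenitor. Cre and the altered Emx1 allele were present in KO libraries only, and their effect cannot be told apart from that of losing Prdm16. The replicates are described as biological, but the embryos or litters behind them are not given, so p-values measure the spread between these libraries.

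Intermediate progenitors are born from radial glia, move to the subventricular zone, express the T-box factor TBR2 (encoded by Eomes) and divide there to give pairs of projection neurons. In the mouse cortex they produce neurons of all layers, with deep-layer neurons born earlier and upper-layer neurons later. PRDM16 is a zinc finger protein of the PR domain family that acts on chromatin, and in the cortex it is known for its expression in radial glia.

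Library totals ran from 6.4 to 8.22 M counts in KO and from 6.42 to 7.60 M in WT, and 18406 to 19680 genes had at least 1 count. The mitochondrial genome accounted for 30.5% to 39.3% of KO counts and 24.8% to 33.1% of WT counts, and these ranges overlap. Summed levels of gene lists, in CPM (counts scaled to a common library total), are set out in the plot of library measures. The 47 genes of the cell cycle list summed to 2649, 1807, 1947 and 1663 CPM in the KO libraries, against 2884, 2734, 2871 and 2041 CPM in the WT libraries. KO replicate 1 thus lay above WT replicate 4, while the other 3 KO libraries lay below every WT library. Xist, the RNA of the inactive X chromosome, was at 20.1 CPM in KO replicate 4 and at 1779 to 4514 CPM in the other 7 libraries. Ddx3y, a gene of the Y chromosome, was at 32.1 CPM in KO replicate 4 and at 5.62 to 22.6 CPM in the other 7. Those 7 libraries thus held both Xist and Y-linked RNA. Ribosomal protein genes summed to 1929, 1419, 1671 and 1915 CPM in KO, against 2081, 2147, 2212 and 2538 CPM in WT, with no overlap on this scale. Taken over the non-mitochondrial counts, a scale added after seeing the data, the same sums were 2776, 2337, 2495 and 3020.0 CPM in KO and 3110.0, 2853, 3300.0 and 3650.0 CPM in WT, and the groups overlapped. Cajal-Retzius genes, such as Reln, summed to 493 to 662 CPM in KO and 235 to 786 CPM in WT. The defining markers of interneurons, microglia and meninges were low, though not all genes of those lists were. Gad1 reached at most 0.531 CPM in KO and 0.570 CPM in WT, C1qa had 2 counts in KO replicate 3 and 0 in the other 7 libraries, and Col1a1 reached at most 0.243 CPM in KO and 0.132 CPM in WT. The whole interneuron list summed to 154.5 to 232 CPM in KO and 128 to 200.1 CPM in WT, the meningeal list to 41.2 to 45.8 CPM in KO and 44.5 to 50.9 CPM in WT, and the microglial list to 2.19 to 5.16 CPM in KO and 3.42 to 5.85 CPM in WT. In the same scale Neurod6, a marker of postmitotic projection neurons, was at 884 ± 61.2 CPM in KO and 989 ± 101 CPM in WT TBR2+ libraries (SD, n = 4 each), close to the 920.1 and 1062 CPM of KO and WT PAX6-TBR2- cells. The means of the other 2 neuronal markers stood below those of PAX6-TBR2- cells of the same genotype, which was not tested. Snap25, a gene of synaptic release, was at 103 CPM in KO and 87.1 CPM in WT TBR2+ cells, against 393 and 374 CPM in KO and WT PAX6-TBR2- cells. Tubb3, a neuronal tubulin gene, was at 252 CPM in KO and 371 CPM in WT TBR2+ cells, against 372 and 465 CPM in KO and WT PAX6-TBR2- cells. What part the mitochondrial share, the ribosomal protein level and the cell cycle level have in the gene differences given here was not tested beyond fits with the mitochondrial share or the cell cycle level as a covariate. The sort and the libraries cannot show whether a gene's level differs through the number of cells of a type or through the RNA in each cell.

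**Figure D1:**
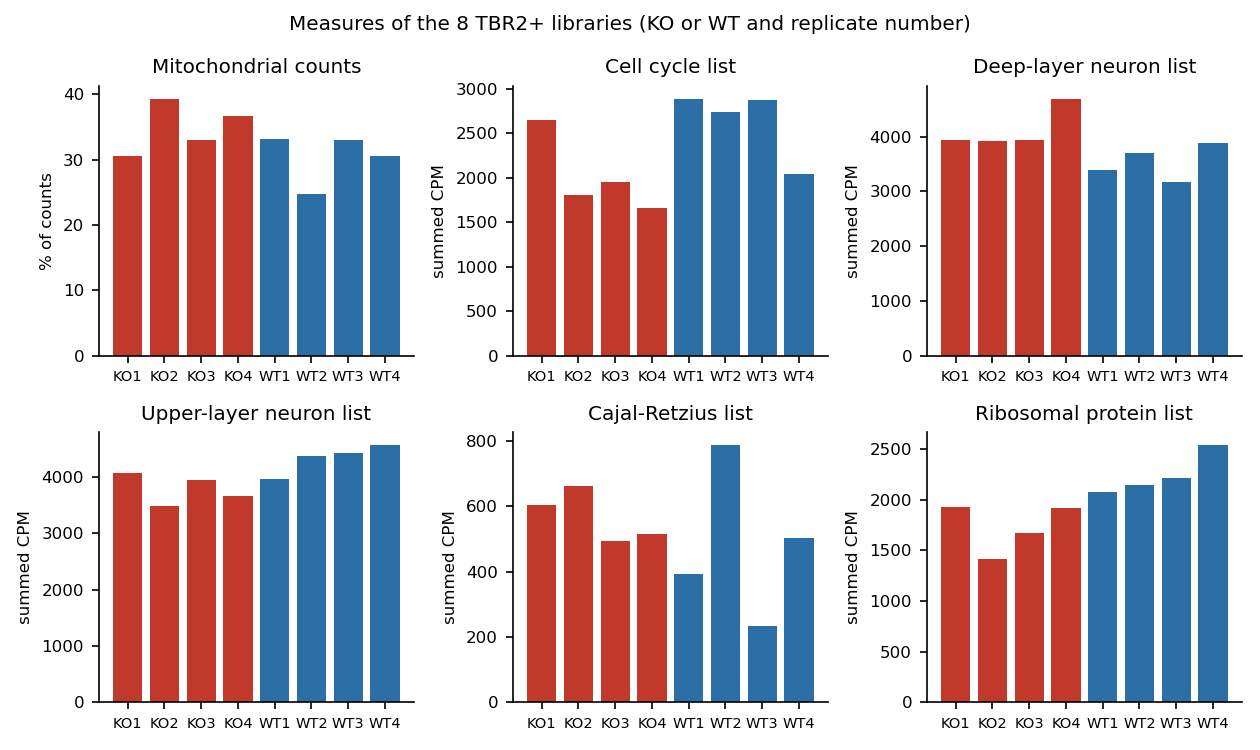
Share of mitochondrial counts (percent) and summed CPM of 5 gene lists in each of the 8 TBR2+ libraries, KO in red and WT in blue, 1 bar per library. The deep-layer neuron list is higher in every KO library (3921 to 4688 CPM) than in any WT library (3169 to 3888 CPM); the ribosomal protein list is lower in every KO library (1419 to 1929 CPM) than in any WT library (2081 to 2538 CPM) on this scale but overlaps over non-mitochondrial counts, and the other 4 measures overlap between the groups.

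The gene that defines the sort did not pass the test, and its groups overlapped. Eomes was at 835, 718, 756 and 659 CPM in KO, against 867, 739.9, 834 and 722 CPM in WT (log2 fold change of -0.09 with an SE of 0.10 and adjusted p = 0.8 in edgeR, two-sided). In CPM of the unscaled library total it was at 714 ± 116 CPM in KO and 820 ± 53.8 CPM in WT TBR2+ cells, above 57.6 and 97.8 CPM in KO and WT PAX6+ cells and 28 and 39.6 CPM in KO and WT PAX6-TBR2- cells. Pax6 also overlapped between the genotypes, with 231, 251, 165 and 136 CPM in KO, against 255, 212, 191 and 162 CPM in WT (log2 fold change -0.07, adjusted p = 0.931 in edgeR).

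Prdm16 itself (ENSMUSG00000039410; GRCm38 chromosome 4, 154316125 to 154636873, minus strand) was at 51.3, 42, 48.4 and 35.4 CPM in KO, against 42.7, 39.2, 67.6 and 39.5 CPM in WT. These CPM values, like all single-gene values from here on unless said otherwise, are scaled by TMM over the 8 libraries. The groups overlapped (log2 fold change of -0.09 with an SE of 0.17 and adjusted p = 0.9 in edgeR). Which exons the floxed alleles remove is not given in the sources used here, so counts over the whole gene can include transcripts that lack the removed part, and in TBR2+ cells they do not check the genotype labels, by which KO and WT are named throughout. The level was also low in this population: 42.7 ± 9.23 CPM in KO and 48.7 ± 12 CPM in WT when CPM are taken of the library total, against 234 ± 39.8 CPM in KO PAX6+ and 317 ± 41.7 CPM in WT PAX6+ cells. Mecom, which encodes the closest relative of PRDM16, had 12, 4, 5 and 4 counts in the KO libraries and 0, 1, 2 and 1 in the WT libraries, too few to be tested; every KO library was above every WT library. Emx1, the gene that carries the Cre allele, was at 42.6, 47.1, 52.2 and 41.1 CPM in KO, against 53.5, 51, 54.9 and 55.5 CPM in WT and did not pass the test (log2 fold change -0.23, adjusted p = 0.381 in edgeR). Of the 81 tested genes within 5 Mb of Emx1, 1 was called, Tgfa (1.235%, beside 1.76% of all tested genes).

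Between KO and WT TBR2+ cells 223 genes differed, 1.76% of the 12687 tested. A gene was called at a Benjamini-Hochberg adjusted p under 0.05 in edgeR's quasi-likelihood test, over all genes tested. In KO 139 genes (1.1%) were higher and 84 (0.662%) lower. Counts of calls in the gene lists and families below stand beside these shares. The change was at least 2-fold in 55 of the genes that rose and in 33 of those that fell. Protein-coding genes made up 209 of the 223. In 218 of the 223 the KO and WT libraries did not overlap, and over all tested genes 875 (6.9%) did not overlap. The median log2 fold change of all tested genes was 0.00. The number of calls depended on single libraries: it was 420 without KO replicate 1, 142 without KO replicate 3, 139 without KO replicate 2, 137 without WT replicate 1 and 121 without WT replicate 3. Without KO replicate 4, the library low in Xist, 178 genes were called. With the mitochondrial share as a covariate 128 genes were called, and with the summed cell cycle level as a covariate 187.

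**Figure D2:**
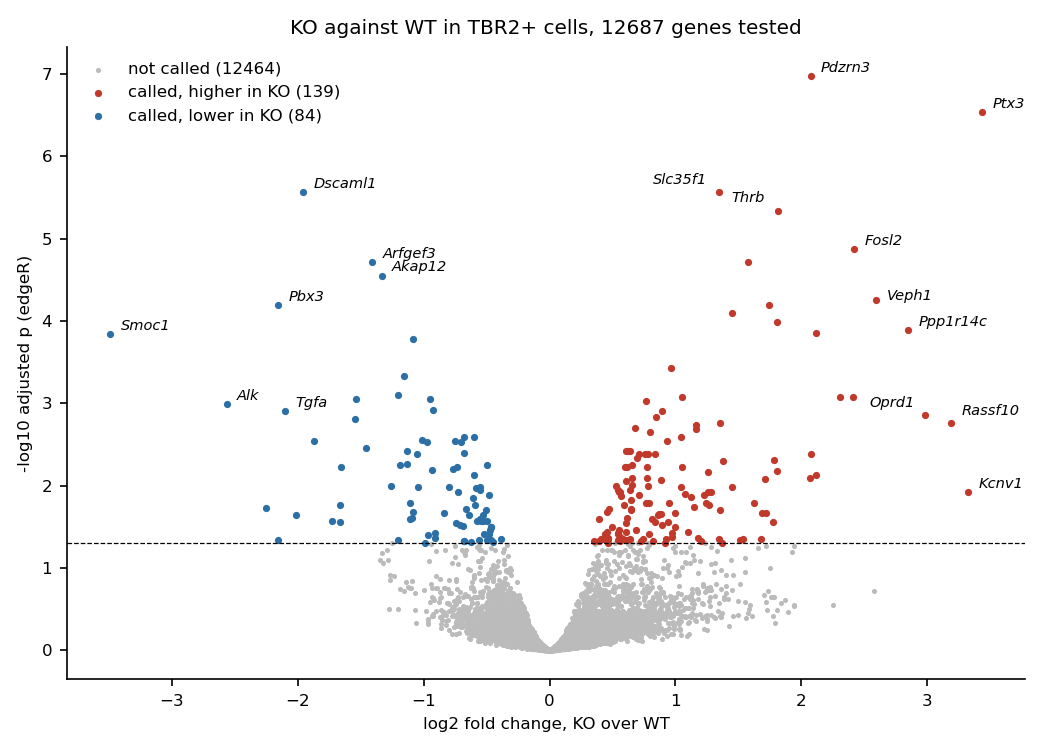
Log2 fold change of KO over WT (x axis) against -log10 of the edgeR adjusted p (y axis) for the 12687 genes tested in TBR2+ cells, with the 139 genes called higher in red, the 84 called lower in blue and the threshold of 0.05 dashed. Pdzrn3 and Ptx3 stand highest among the genes that rose and Dscaml1 among those that fell.

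The gene with the largest log2 fold change upward among the 223 was Ptx3, which encodes a secreted long pentraxin that takes part in innate immunity and matrix assembly. Ptx3 (ENSMUSG00000027832; chromosome 3, 66219910 to 66225805, plus strand) was at 54.4, 47.5, 49.2 and 50.4 CPM in KO, against 3.77, 3.06, 7.65 and 4.4 CPM in WT. The lowest KO library was thus several times above the highest WT library (log2 fold change of 3.43 with an SE of 0.20 and adjusted p = 2.89e-07 in edgeR). Ptx3 lies inside Veph1, on the other strand, and Veph1, which encodes a PH domain protein related to fly Melted, rose with it, with 29.8, 17.7, 25.9 and 19.2 CPM in KO, against 4.93, 3.34, 4.99 and 2.06 CPM in WT. Veph1 had a log2 fold change of 2.59 with an SE of 0.25 and adjusted p = 5.49e-05. The 2 genes share 0 exonic bases, but intronic reads of one cannot be told from those of the other, since the strand setting of the counting is not given in the sources used here. Pdzrn3, whose product is a ubiquitin ligase with RING and PDZ domains, had the smallest adjusted p of all genes. It was at 317, 331, 361 and 375 CPM in KO, against 78.4, 87.2, 69.3 and 94 CPM in WT (log2 fold change of 2.07 with an SE of 0.11 and adjusted p = 1.05e-07; chromosome 6, 101149609 to 101377897, minus strand). A noncoding gene model on the opposite strand within Pdzrn3, Gm26911, rose too (log2 fold change 1.80), with 0 exonic bases in common. Fosl2, which encodes the AP-1 subunit FRA2, was at 61.3, 70.8, 58.6 and 77.8 CPM in KO, against 9.22, 10.3, 10.6 and 20.1 CPM in WT. Fosl2 had a log2 fold change of 2.42 with an SE of 0.20 and adjusted p = 1.34e-05. WT replicate 4 lay above the other WT libraries for Fosl2, and still below every KO library. Thrb, the gene of thyroid hormone receptor beta, varied little within either group, with 38.3, 38.4, 39.9 and 37.8 CPM in KO, against 10.5, 12.7, 12.5 and 8.38 CPM in WT. Thrb had a log2 fold change of 1.81 with an SE of 0.14 and adjusted p = 4.55e-06.

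Genes that fell most included Smoc1, Alk and Pbx3. Smoc1, which encodes a secreted calcium-binding matrix protein known as a BMP antagonist, was at 1.28, 0.28, 0.639 and 1.32 CPM in KO, against 13.6, 6.95, 12.8 and 7.56 CPM in WT; all 4 KO libraries were below 2 CPM (log2 fold change of -3.49 with an SE of 0.38 and adjusted p = 0.000143 in edgeR). Alk, the gene of a receptor tyrosine kinase, was at 0.894, 1.26, 1.92 and 0.658 CPM in KO, against 7.4, 4.31, 8.58 and 7.42 CPM in WT. Alk had a log2 fold change of -2.56 with an SE of 0.34 and adjusted p = 0.00103. Pbx3, a TALE homeobox gene whose product binds DNA together with HOX and MEIS factors, was at 5.87, 4.76, 4.47 and 5.79 CPM in KO, against 30, 18.2, 28.6 and 17 CPM in WT. Pbx3 had a log2 fold change of -2.15 with an SE of 0.21 and adjusted p = 6.33e-05. Among genes of higher level, Dscaml1, which encodes an immunoglobulin-type adhesion molecule, was at 18.5, 26.5, 30.5 and 25.8 CPM in KO, against 86.9, 92.2, 109.7 and 104 CPM in WT. Dscaml1 had a log2 fold change of -1.96 with an SE of 0.14 and adjusted p = 2.72e-06. Arfgef3, a gene of the family of guanine exchange factors for ARF GTPases, was at 25.5, 27.2, 27.3 and 32.9 CPM in KO, against 73, 65.9, 89.9 and 71.9 CPM in WT (log2 fold change of -1.41 with an SE of 0.12 and adjusted p = 1.92e-05), and Akap12, which encodes a scaffold that anchors protein kinase A, was at 21.6, 20.9, 19.6 and 19 CPM in KO, against 51.5, 41.4, 55.4 and 56.2 CPM in WT. Akap12 had a log2 fold change of -1.33 with an SE of 0.12 and adjusted p = 2.8e-05. In none of these 6 genes did the groups overlap. For all but Akap12 this was a condition for being named by the largest change.

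**Figure D3:**
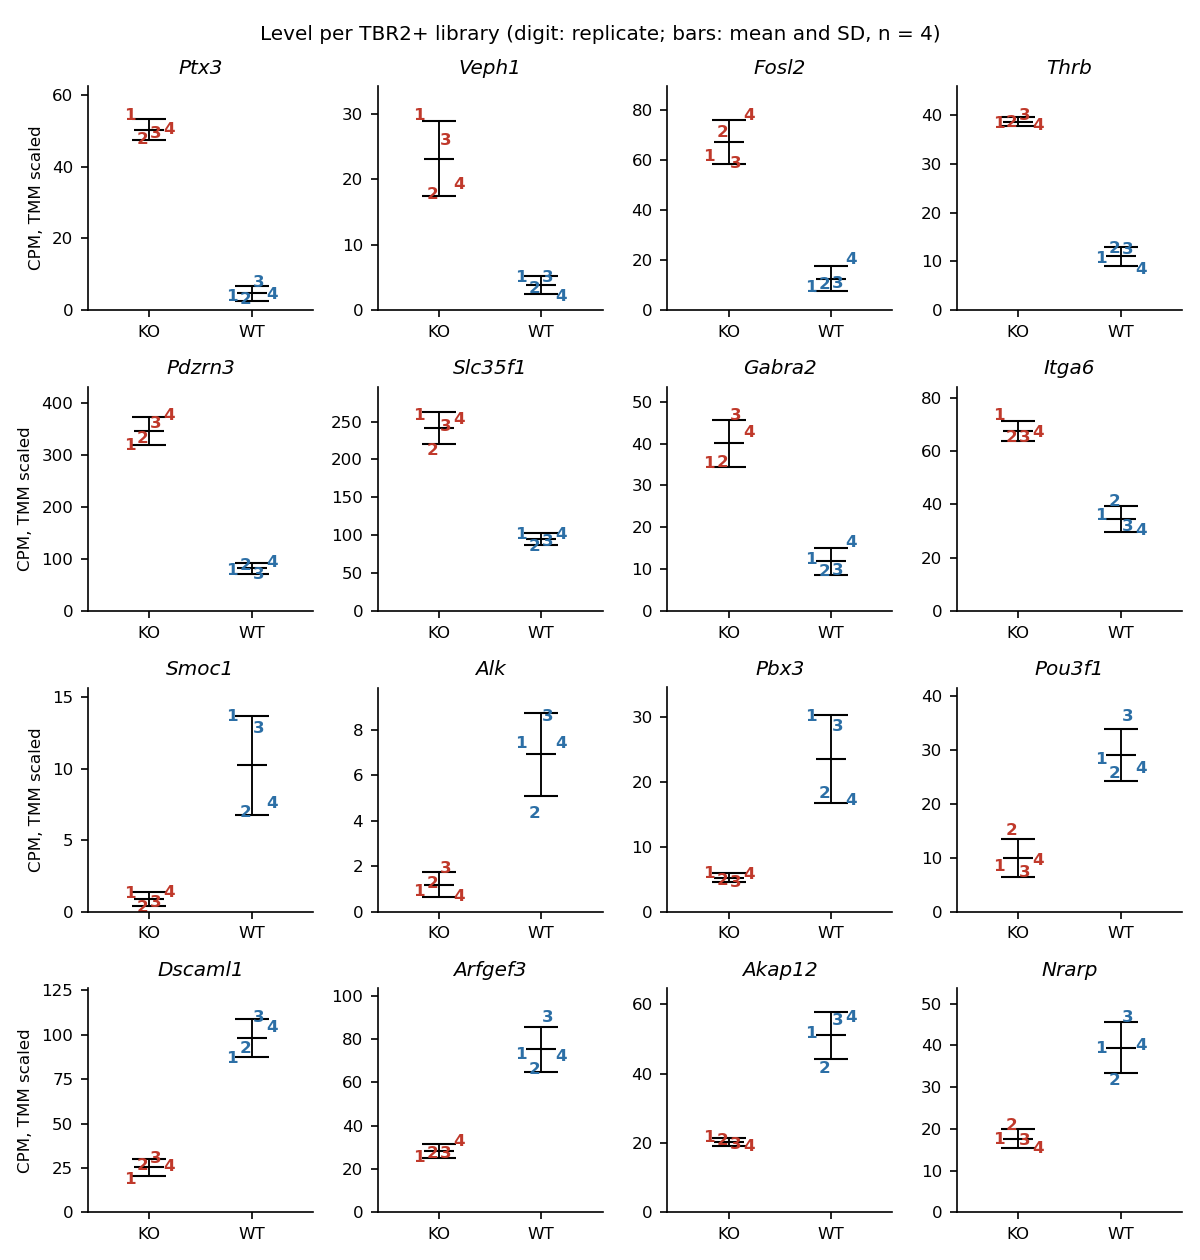
TMM-scaled CPM in each TBR2+ library for 8 genes that rose (upper 2 rows) and 8 that fell (lower 2 rows), KO left in red and WT right in blue; digits are replicate numbers and bars are the mean and SD of 4 libraries. No KO library overlaps a WT library in any of the 16 genes, which was a condition for those named by the largest change.

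Promoter sequence is shown for the 4 genes with the smallest adjusted p that had exactly 1 promoter in RefSeq (GRCm38.p6). They were taken from the 12 named for the largest change in each direction. Pdzrn3, Ptx3 and Fosl2 rose and Arfgef3 fell, and their windows are set side by side. Each runs from 250 bases before to 50 bases after the annotated start, 5′ to 3′ on the gene's strand: chr6:101377848-101378147 on the minus strand for Pdzrn3, chr3:66219637-66219936 on the plus strand for Ptx3, chr5:32136222-32136521 on the plus strand for Fosl2 and chr10:18743709-18744008 on the minus strand for Arfgef3. Capitals mark a match to the AP-1 site TGANTCA, whose reverse complement reads the same, or to GATAAG, searched on both strands; the motifs do not overlap.
Pdzrn3: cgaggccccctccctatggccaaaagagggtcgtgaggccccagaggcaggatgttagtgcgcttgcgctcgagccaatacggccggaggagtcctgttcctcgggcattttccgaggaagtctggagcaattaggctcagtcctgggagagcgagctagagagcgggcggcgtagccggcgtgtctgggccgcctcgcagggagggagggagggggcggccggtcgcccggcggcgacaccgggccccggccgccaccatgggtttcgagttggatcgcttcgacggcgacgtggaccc
Ptx3: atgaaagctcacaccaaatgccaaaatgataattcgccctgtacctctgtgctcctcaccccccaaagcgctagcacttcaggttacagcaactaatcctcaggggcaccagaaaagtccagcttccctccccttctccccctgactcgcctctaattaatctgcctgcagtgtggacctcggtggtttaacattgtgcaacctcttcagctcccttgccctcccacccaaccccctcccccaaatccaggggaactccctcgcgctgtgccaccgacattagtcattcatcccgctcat
Fosl2: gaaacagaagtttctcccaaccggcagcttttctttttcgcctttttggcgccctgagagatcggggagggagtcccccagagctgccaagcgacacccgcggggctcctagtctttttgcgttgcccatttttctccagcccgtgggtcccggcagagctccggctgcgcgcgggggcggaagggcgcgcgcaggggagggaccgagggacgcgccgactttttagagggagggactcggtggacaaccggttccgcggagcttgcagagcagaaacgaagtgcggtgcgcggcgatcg
Arfgef3: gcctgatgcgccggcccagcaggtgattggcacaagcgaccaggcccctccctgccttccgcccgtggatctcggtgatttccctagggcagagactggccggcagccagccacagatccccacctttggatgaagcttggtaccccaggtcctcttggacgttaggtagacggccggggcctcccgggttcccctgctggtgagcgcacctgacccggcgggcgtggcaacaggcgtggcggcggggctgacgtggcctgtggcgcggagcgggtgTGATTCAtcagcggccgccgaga
Of these 4 windows, the one of Arfgef3, a gene that fell, held the AP-1 letters, and none held GATAAG. GC content was 68.7% for Pdzrn3, 54.7% for Ptx3, 64.7% for Fosl2 and 68.7% for Arfgef3. Among all RefSeq promoters listed, 7.81% held the AP-1 letters, and over the promoters of genes tested in TBR2+ cells 4.38%. The share was 5.59% of 143 promoters of genes that rose and 3.06% of 98 promoters of genes that fell, and for GATAAG it was likewise 5.59% and 3.06%, beside 4.92% of the promoters of tested genes. These matches are a description of letters and not evidence of binding.

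Transcription factor genes moved in both directions, and the homeobox genes that passed the test all fell. Of 37 tested genes of the homeobox and TALE list, 6 fell and 0 rose (1.76% of all tested genes were called), while the list's median log2 fold change was -0.07. Besides Pbx3 these were 3 POU genes, Cux2 and Zfhx4. Pou3f1, which encodes OCT6, was at 8.3, 15, 7.18 and 9.48 CPM in KO, against 28.2, 25.7, 36.2 and 26.5 CPM in WT. Pou3f1 had a log2 fold change of -1.54 with an SE of 0.20 and adjusted p = 0.000897 in edgeR. Pou3f2, which encodes BRN2, a factor of late-born upper-layer neurons, was at 78.3, 88.7, 75.8 and 80.1 CPM in KO, against 161, 93.8, 198 and 125 CPM in WT; KO replicate 2 was only just below WT replicate 2, and the call (log2 fold change -0.84, adjusted p = 0.0217) was lost in 4 of the 8 fits that each left out 1 library, with the highest adjusted p of 0.0923 without KO replicate 3. The broadly expressed Pou2f1 was lower by less (log2 fold change -0.50, adjusted p = 0.0267; lost in 5 of the 8 such fits, up to 0.105 without WT replicate 1). In all, 7 of the 8 tested POU genes had a log2 fold change below 0. Zfhx4, which encodes a large zinc finger homeobox protein, was at 135, 129, 126 and 104 CPM in KO, against 234, 184, 238 and 165 CPM in WT. Zfhx4 had a log2 fold change of -0.73 with an SE of 0.13 and adjusted p = 0.00596. The PRDM family had no call among 9 tested genes (8 above 0).

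Several regulators rose. Sox5 and Fezf2, which in the cortex are known for specifying subcortically projecting neurons, were at 471 ± 78.4 CPM in KO and 271 ± 24.4 CPM in WT and at 395 ± 56.5 CPM in KO and 241 ± 49.5 CPM in WT (SD, n = 4 each; log2 fold changes 0.80 and 0.71, adjusted p = 0.00225 and 0.0129 in edgeR). The LIM-only gene Lmo3 was at 55.8, 60.4, 69.1 and 123 CPM in KO, against 21.3, 30.2, 30.4 and 37 CPM in WT; KO replicate 4 stood above the other KO libraries, and the groups did not overlap (log2 fold change of 1.38 with an SE of 0.23 and adjusted p = 0.00496). Tle1, which encodes a Groucho-type corepressor, was at 33.6, 26.8, 36.1 and 30.7 CPM in KO, against 21.6, 17.9, 17.5 and 17 CPM in WT. Tle1 had a log2 fold change of 0.78 with an SE of 0.13 and adjusted p = 0.00586. Ebf1, a helix-loop-helix gene of early neuronal differentiation, was at 22.5, 26.4, 26.2 and 25.6 CPM in KO, against 17.1, 11.8, 7.49 and 12.1 CPM in WT. Ebf1 had a log2 fold change of 1.04 with an SE of 0.19 and adjusted p = 0.0103. Of 23 tested nuclear receptor genes 3 rose and 0 fell (13%, beside 1.76% of all tested genes). These were Thrb, given above, Rorb (log2 fold change 0.64) and Nr4a2 (0.64). Dach2, of low level, rose and was at 3.49 ± 1.01 CPM in KO and 1.04 ± 0.361 CPM in WT (log2 fold change 1.72, adjusted p = 0.0215). Leaving out 1 library ended the call of Fezf2 in 3 of the 8 fits (adjusted p up to 0.062 without WT replicate 3), of Rorb in 2 of the 8 (up to 0.0677 without WT replicate 2), of Dach2 in 4 of the 8 (up to 0.0846 without KO replicate 2) and of Nr4a2 in 6 of the 8 (up to 0.147 without KO replicate 2). With the mitochondrial share as a covariate the calls of Lmo3, Ebf1, Rorb and Dach2 were lost (adjusted p = 0.0668, 0.091, 0.14 and 0.165 in edgeR). Those of Fezf2 and Nr4a2 were lost too (adjusted p = 0.116 and 0.333 in edgeR), and those of Sox5, Tle1 and Thrb held.

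In lists drawn up for neurons of deep and upper layers, deep-layer genes rose or did not pass, and upper-layer genes were split. Of 19 tested deep-layer genes 4 rose (Sox5, Lmo3, Fezf2 and Nr4a2) and 0 fell (21.1%, beside 1.76% of all tested genes). Of the 19, 16 had a log2 fold change above 0 and the median was 0.64, beside 0.00 over all genes. The summed level of this list was 3946, 3921, 3929 and 4688 CPM in KO and 3396, 3692, 3169 and 3888 CPM in WT, with no overlap, and over the non-mitochondrial counts it was 5679 to 7393 CPM in KO and 4728 to 5592 CPM in WT, again with none. KO replicate 2 was only just above WT replicate 4, and KO replicate 4 was well above the rest. Not all 4 called deep-layer genes were neuronal by their level in the WT libraries of the other populations. Over the non-mitochondrial counts, Nr4a2 was at 31.1 CPM in WT PAX6-TBR2- and 103 CPM in WT PAX6+ cells. Lmo3 was at 131 and 102 CPM, less than 2-fold apart. Sox5 (1758 and 134 CPM) and Fezf2 (615 and 224 CPM) were higher in WT PAX6-TBR2- cells. Of 22 tested genes of the upper-layer list 4 fell (Pou3f1, Cux2, Pou3f2 and Unc5d) and 2 rose (Rorb and Cntn2), 27.3% in all, with a median of 0.01. Whether Cntn2 marks upper-layer neurons at this age was not tested. Cux2, a homeobox gene of upper-layer neurons and their progenitors, was at 45.2, 51.3, 61.3 and 46.5 CPM in KO, against 72.7, 72.8, 88.3 and 73.7 CPM in WT (log2 fold change of -0.59 with an SE of 0.12 and adjusted p = 0.017 in edgeR). Cux2 lost its call in 2 of the 8 fits that left out 1 library, up to an adjusted p of 0.0693 without WT replicate 3 in edgeR. Unc5d, a netrin receptor family gene expressed in multipolar cells of the subventricular zone, was at 223, 273, 281 and 306 CPM in KO, against 351, 348, 454 and 439 CPM in WT. Unc5d had a log2 fold change of -0.55 with an SE of 0.12 and adjusted p = 0.0254. Unc5d lost its call in 4 of the 8 fits that left out 1 library, with an adjusted p up to 0.104 without WT replicate 3 in edgeR. Cntn2, the gene of the axonal adhesion molecule TAG-1, was at 394, 449, 503 and 481 CPM in KO, against 178, 248, 192 and 372 CPM in WT. Cntn2 had a log2 fold change of 0.88 with an SE of 0.18 and adjusted p = 0.0219. Cntn2 lost its call in 5 of the 8 fits that left out 1 library, with an adjusted p up to 0.0909 without WT replicate 3 in edgeR. WT replicate 4, which was low in cell cycle genes, was the highest WT library for Fezf2, Lmo3 and Cntn2. Of the 4 deep-layer calls 3 held with the cell cycle level as a covariate (Sox5, Lmo3, Fezf2), and 1 held with the mitochondrial share as a covariate (Sox5). Of the 6 upper-layer calls 5 held with the cell cycle level, all but Pou3f2, and 3 with the mitochondrial share (Pou3f1, Pou3f2, Unc5d).

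Of 24 tested genes of the intermediate progenitor list 2 rose and 2 fell (16.7%, beside 1.76% of all tested genes), and the median log2 fold change was -0.07. Penk, which encodes the precursor of the enkephalin opioid peptides, was at 6.13, 3.5, 4.47 and 6.98 CPM in KO, against 1.43, 2.08, 1.4 and 1.51 CPM in WT. Penk had a log2 fold change of 1.71 with an SE of 0.30 and adjusted p = 0.00819 in edgeR. Sorbs2, which encodes an adaptor of the actin cytoskeleton, was among the most abundant genes that rose, at 1301 ± 91.6 CPM in KO and 949 ± 71.5 CPM in WT (SD, n = 4 each; log2 fold change 0.46, adjusted p = 0.0206; lost in 3 of the 8 fits that left out 1 library, up to 0.0864 without WT replicate 3). Kif26b, a kinesin gene, was at 129, 85.5, 92 and 88.1 CPM in KO, against 207, 195, 175 and 185 CPM in WT. Kif26b had a log2 fold change of -0.95 with an SE of 0.12 and adjusted p = 0.000897. KO replicate 1, the KO library highest in cell cycle genes, was the highest of the KO libraries for Kif26b. Coro1c, a coronin gene, was the weakest of the 4 (log2 fold change -0.45, adjusted p = 0.0488; lost in 7 of the 8 fits, up to 0.163 without KO replicate 3). Of 23 tested radial glia genes 2 rose and 0 fell (8.7%): Veph1, given above, and Ptprz1, which encodes a receptor tyrosine phosphatase of progenitors and glia. Ptprz1 was at 51.2, 56.6, 98 and 122 CPM in KO, against 23.4, 23.8, 32.1 and 48.9 CPM in WT, with its 2 lowest KO libraries close to WT replicate 4 (log2 fold change 1.35, adjusted p = 0.0196; lost in 4 of the 8 fits, up to 0.0845 without KO replicate 3). The pan-neuronal list had no call among 19 tested genes (15 above 0, median 0.18).

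Genes of the cell cycle list leaned one way, with a single call. Of its 47 genes, all tested, 43 had a log2 fold change below 0 and 4 above, with a median of -0.46. Of the 47, 1 was called, Cdk6 (2.13%, beside 1.76% of all tested genes). In 4 the groups did not overlap, beside 6.9% of all tested genes. Cdk6, the kinase that acts with D-type cyclins at entry into S phase, was at 91.9, 76.5, 82.7 and 75.5 CPM in KO, against 133, 104, 186 and 111 CPM in WT. Cdk6 had a log2 fold change of -0.71 with an SE of 0.15 and adjusted p = 0.0303 in edgeR. Cdk6 lost its call in 5 of the 8 fits that left out 1 library, with an adjusted p up to 0.107 without KO replicate 2 in edgeR. Mki67, the gene of the proliferation antigen Ki-67, was at 398, 195, 226 and 156 CPM of the library total in KO, against 472, 407, 429.6 and 178 CPM in WT, so KO replicate 1 and WT replicate 4 crossed the groups. Histone genes were also mostly below 0 (24 of 28, median -0.29) with no call. Ribosomal protein genes (32 of 38 below 0, median -0.21) and nuclear genes of oxidative phosphorylation (37 of 40 below 0, median -0.18) had no call. All 10 tested mitochondrially encoded genes were above 0 (median 0.27), also with no call. The nuclear oxidative phosphorylation list summed to 1157 to 1549 CPM in KO and 1573 to 1877 CPM in WT, with no overlap. Over the non-mitochondrial counts it was 1905 to 2347 CPM in KO and 2351 to 2700 CPM in WT, again with none, though KO replicate 4 was only just below WT replicate 1. With the mitochondrial share as a covariate the call of Cdk6 was lost.

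**Figure D4:**
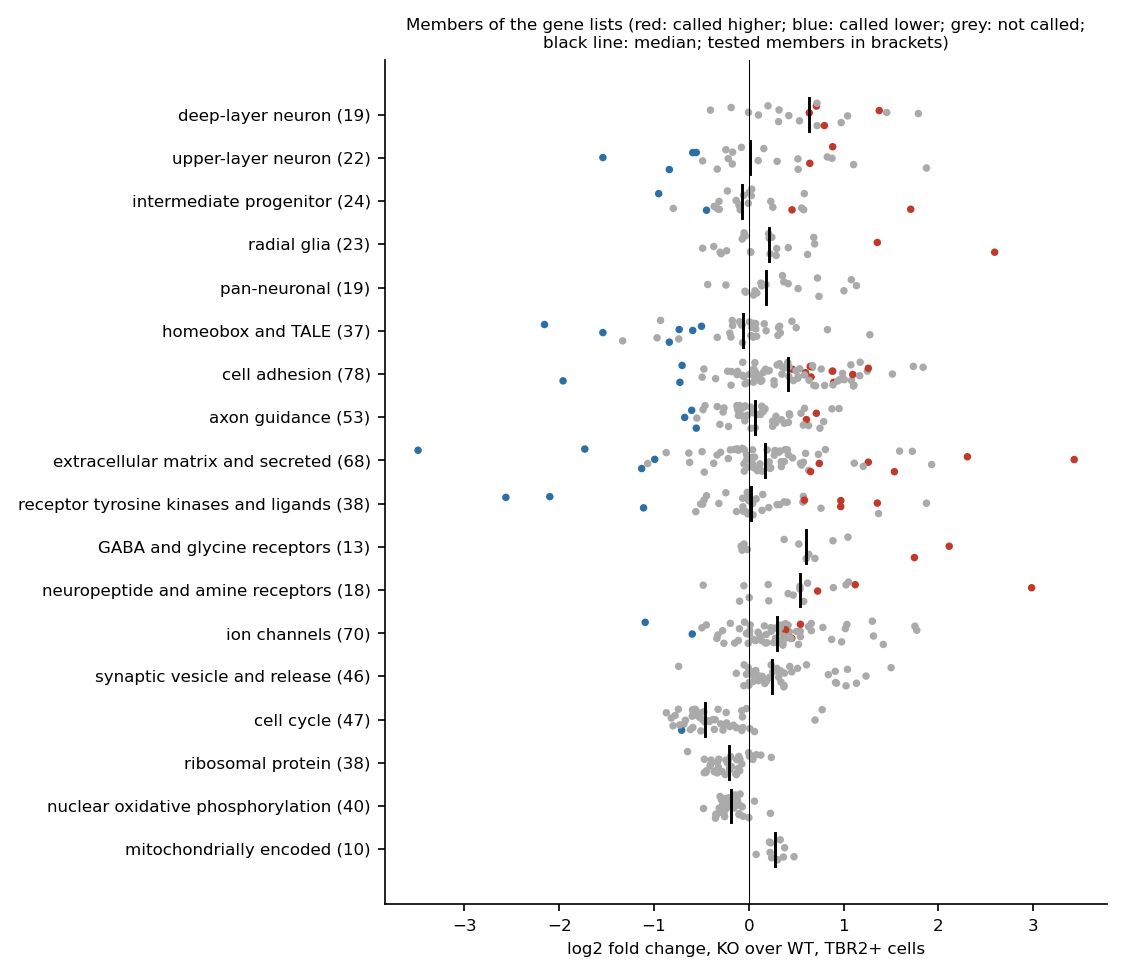
Log2 fold change of KO over WT in TBR2+ cells (x axis) for each tested member of 18 gene lists, 1 point per gene, red where called higher, blue where called lower and grey where not called, with the list median as a black line. Deep-layer, pan-neuronal, cell adhesion, GABA receptor, neuropeptide receptor, ion channel, synaptic vesicle and mitochondrially encoded genes lie mostly right of 0. Cell cycle, ribosomal protein and nuclear oxidative phosphorylation genes lie mostly left of it, while the homeobox and the matrix lists hold calls far from a median near 0.

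Genes of the extracellular matrix and of secreted proteins changed in both directions. Of 68 tested, 6 rose and 4 fell (14.7%, beside 1.76% of all tested genes), with a median of 0.17. After Ptx3, the clearest rises were in the metalloprotease genes Adamts20, at 5.49, 5.04, 4.95 and 7.5 CPM in KO, against 1.04, 1.53, 0.78 and 1.24 CPM in WT (log2 fold change of 2.31 with an SE of 0.30 and adjusted p = 0.000845 in edgeR), and Adamts17 (log2 fold change 0.65, adjusted p = 0.00801). Col23a1, which encodes a transmembrane collagen, was at 14.2, 13.7, 11.7 and 12.9 CPM in KO, against 7.66, 6.81, 3.12 and 4.12 CPM in WT. Col23a1 had a log2 fold change of 1.26 with an SE of 0.24 and adjusted p = 0.0119. Besides Smoc1, a fall was seen in Lama5, the laminin alpha 5 chain gene, at 25.9, 18.6, 21.9 and 11.1 CPM in KO, against 46.1, 40.7, 42.4 and 40.3 CPM in WT. Lama5 had a log2 fold change of -1.13 with an SE of 0.19 and adjusted p = 0.00543. Hmcn1, which encodes the basement membrane protein hemicentin 1, lay outside the list and was at 4.6, 3.64, 2.87 and 2.77 CPM in KO, against 11.8, 9.31, 10.5 and 9.21 CPM in WT. Hmcn1 had a log2 fold change of -1.54 with an SE of 0.22 and adjusted p = 0.00155. Thsd4, which encodes an ADAMTS-like protein that promotes fibrillin microfibrils, was at 4.47, 3.5, 2.4 and 1.58 CPM in KO, against 17.7, 7.23, 9.36 and 5.63 CPM in WT; its call (log2 fold change of -1.73 with an SE of 0.37 and adjusted p = 0.0271) was lost in 5 of the 8 fits that left out 1 library (up to 0.104 without KO replicate 3). Laminin alpha 1, by contrast, was higher in KO at a low level (Lama1, log2 fold change 1.53, adjusted p = 0.0449; lost in 7 of the 8 fits, up to 0.143 without WT replicate 3), as was Crim1, which encodes a membrane protein that binds BMPs (log2 fold change 0.74; lost in 6 of the 8 fits, up to 0.149 without WT replicate 3). Of the 10 calls of the list 6 held with the mitochondrial share as a covariate (Ptx3, Adamts20, Adamts17, Lama1, Smoc1 and Lama5).

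Integrins, the receptors for laminins and other matrix proteins, were looked at after their values were seen. Of 14 tested genes 3 rose and 0 fell, beside 1.1% and 0.662% of all tested genes. Itga6, the alpha chain of the laminin-binding integrins, was at 73.2, 65, 65.1 and 66.9 CPM in KO, against 35.7, 41, 31.5 and 30.1 CPM in WT. Itga6 had a log2 fold change of 0.97 with an SE of 0.11 and adjusted p = 0.000374 in edgeR. Itga4 was at 73.8, 71.5, 80.6 and 71.6 CPM in KO, against 49.1, 43.2, 53.1 and 46.2 CPM in WT (log2 fold change of 0.64 with an SE of 0.10 and adjusted p = 0.00375), and its exons overlap 1124 bases of Cerkl on the other strand, a gene of low level that was not called. Itga9 was at 14.2 ± 2.36 CPM in KO and 7.04 ± 2.27 CPM in WT (SD, n = 4 each; log2 fold change 1.00, adjusted p = 0.0315), and its call was lost in 4 of the 8 fits that left out 1 library (up to 0.115 without KO replicate 3). The remaining 11 integrin genes did not pass.

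Of 78 tested cell adhesion genes 8 rose and 3 fell, beside 1.76% called over all genes. In 62 of the 78 the log2 fold change was above 0, with a median of 0.42, and over all tested genes 50.4% were above 0. The 3 that fell were Dscaml1 and the 2 called of 12 cadherins, Cdh4, at 50.7, 60.4, 51.1 and 49.9 CPM in KO, against 73.9, 91.3, 93.5 and 86.9 CPM in WT (log2 fold change of -0.70 with an SE of 0.11 and adjusted p = 0.00292 in edgeR), and Cdh10, at 31, 28.6, 25.9 and 32.5 CPM in KO, against 49.6, 42.8, 62 and 41.5 CPM in WT. Cdh10 had a log2 fold change of -0.73 with an SE of 0.14 and adjusted p = 0.0118. Cdh10 lost its call in 1 of the 8 fits that left out 1 library, with an adjusted p up to 0.0514 without KO replicate 3 in edgeR. Of 31 protocadherins 3 rose and 0 fell, among them Pcdh10, at 51.6 ± 5.07 CPM in KO and 32.8 ± 4.26 CPM in WT (SD, n = 4 each; log2 fold change 0.66, adjusted p = 0.00988). Igsf21, which encodes a synaptic immunoglobulin protein, was at 73.5, 63.9, 73.8 and 66 CPM in KO, against 33.8, 32.7, 36.4 and 46.3 CPM in WT. Igsf21 had a log2 fold change of 0.89 with an SE of 0.12 and adjusted p = 0.00123. Igsf11, another immunoglobulin superfamily gene, was at 32.7, 22.6, 21.4 and 22 CPM in KO, against 15.7, 9.31, 8.43 and 7.56 CPM in WT. Igsf11 had a log2 fold change of 1.26 with an SE of 0.22 and adjusted p = 0.00677. Alcam and Pcdh15 also rose (log2 fold changes 0.65 and 1.10), with calls lost in 2 of the 8 fits (up to 0.085 without WT replicate 3) and in 3 of the 8 (up to 0.105 without WT replicate 2). With the mitochondrial share as a covariate 5 of the 11 calls of the list held (Igsf21, Igsf11, Dscaml1, Cdh4, Cdh10).

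Receptors for guidance cues were lower where they changed, apart from a semaphorin. Of 53 tested axon guidance genes 3 fell (Robo2, Epha7 and Unc5d) and 2 rose (Sema6d and the transcription factor gene Fezf2), with a median of 0.07. Robo2, which encodes a receptor for Slit proteins, was at 329, 419, 313 and 343 CPM in KO, against 583, 592, 549.6 and 519 CPM in WT. Robo2 had a log2 fold change of -0.68 with an SE of 0.10 and adjusted p = 0.00255 in edgeR. Epha7, a receptor for A-type ephrins, was at 74, 87, 77.9 and 84.7 CPM in KO, against 122, 123, 130.0 and 117 CPM in WT (log2 fold change of -0.60 with an SE of 0.09 and adjusted p = 0.0026), and Ephb6, outside the list, was at 37.5, 32.8, 35.6 and 29.5 CPM in KO, against 50.9, 57.1, 57.4 and 51.5 CPM in WT (log2 fold change of -0.68 with an SE of 0.11 and adjusted p = 0.00406); these were the 2 called of 9 tested Eph receptors, and none of 7 ephrins was called. Sema6d, which encodes a transmembrane semaphorin, was at 327, 488, 429.8 and 424 CPM in KO, against 208, 293, 275 and 319 CPM in WT. Sema6d had a log2 fold change of 0.61 with an SE of 0.14 and adjusted p = 0.0365. Sema6d lost its call in 6 of the 8 fits that left out 1 library, with an adjusted p up to 0.129 without KO replicate 2 in edgeR. KO replicate 1 was just above WT replicate 4 for Sema6d. Among 44 tested genes of radial migration, 1 rose, Pdzrn3, and 1 fell, Unc5d.

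Growth factor signalling genes changed at the level of single ligands and receptors. Of 38 tested receptor tyrosine kinases, ligands and related genes 4 rose and 3 fell (18.4%, beside 1.76% of all tested genes), with a median of 0.02. Tgfa, which encodes a ligand of the EGF receptor, was at 1.4, 2.24, 1.92 and 0.922 CPM in KO, against 6.88, 7.37, 5.62 and 7.83 CPM in WT. Tgfa had a log2 fold change of -2.10 with an SE of 0.29 and adjusted p = 0.00123 in edgeR. Tgfa lies within 5 Mb of Emx1, whose altered allele was present in KO only, and an effect of that allele cannot be told apart. Tyro3, a receptor of the TAM family, was at 6.64, 6.45, 3.99 and 4.87 CPM in KO, against 15.6, 11, 11.9 and 9.21 CPM in WT (log2 fold change of -1.11 with an SE of 0.22 and adjusted p = 0.0162). Tyro3 lost its call in 2 of the 8 fits that left out 1 library, up to an adjusted p of 0.07 without WT replicate 1 in edgeR. The genes that rose, apart from Ptprz1, were Pdgfa, Pdgfc and Cntfr, with log2 fold changes of 0.97, 0.97 and 0.59 and adjusted p of 0.0376, 0.0423 and 0.0449; each call was lost in 5 to 7 of the 8 fits, with the highest adjusted p of 0.153 for Cntfr without WT replicate 3. Nrarp, a target and feedback inhibitor of Notch signalling, was the 1 called of 22 tested Notch genes and fell. It was at 17.4, 20.7, 17.2 and 15.4 CPM in KO, against 39.4, 31.7, 46.7 and 39.9 CPM in WT. Nrarp had a log2 fold change of -1.15 with an SE of 0.14 and adjusted p = 0.000463. Among 43 Wnt genes Daam2, which encodes a formin bound by Dishevelled, rose, at 17.9, 8.97, 14.4 and 8.69 CPM in KO, against 3.25, 2.64, 2.19 and 1.24 CPM in WT (log2 fold change of 2.41 with an SE of 0.31 and adjusted p = 0.000841), and Kif26b fell. Of 33 tested genes of FGF signalling and MAPK feedback, Dusp26, a dual-specificity phosphatase gene, fell, at 3.7, 2.8, 2.08 and 2.5 CPM in KO, against 8.18, 10.6, 5.15 and 11.3 CPM in WT (log2 fold change of -1.65 with an SE of 0.28 and adjusted p = 0.00586), and Spred3 rose slightly (log2 fold change 0.55; lost in 7 of the 8 fits, up to 0.116 without WT replicate 3). Neither of these 2 calls held with the mitochondrial share as a covariate (adjusted p = 0.0668 for Dusp26 and 0.0845 for Spred3 in edgeR).

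Neurotransmitter and neuropeptide receptor genes rose where they changed. Of 13 tested GABA and glycine receptor genes 2 rose and 0 fell (15.4%, beside 1.76% of all tested genes), with a median of 0.60. Gabra2, the alpha 2 subunit of the GABA-A receptor, was at 35.4, 35.5, 46.6 and 42.8 CPM in KO, against 12.2, 9.31, 9.68 and 16.4 CPM in WT (log2 fold change of 1.75 with an SE of 0.17 and adjusted p = 6.33e-05 in edgeR), and Gabrg1, the gamma 1 subunit, was at 4.72, 2.38, 4.79 and 3.42 CPM in KO, against 1.3, 0.973, 0.624 and 0.55 CPM in WT. Gabrg1 had a log2 fold change of 2.11 with an SE of 0.37 and adjusted p = 0.00736. Among 18 neuropeptide and amine receptor genes 3 rose and 0 fell (16.7% called, 15 above 0, median 0.54). The delta opioid receptor gene Oprd1, a receptor for the enkephalins made from Penk, was at 4.85, 3.5, 6.55 and 4.48 CPM in KO, against 0.26, 1.25, 0.468 and 0.412 CPM in WT. Oprd1 had a log2 fold change of 2.98 with an SE of 0.41 and adjusted p = 0.0014 in edgeR. The WT level of Oprd1 was very low, so the size of its change depends on the fit's prior. The nicotinic receptor gene Chrna3 was at 14, 11.8, 10.1 and 9.22 CPM in KO, against 6.75, 5.56, 3.9 and 4.4 CPM in WT. Chrna3 had a log2 fold change of 1.12 with an SE of 0.22 and adjusted p = 0.0135. Chrna3 lost its call in 1 of the 8 fits that left out 1 library, with an adjusted p up to 0.0518 without WT replicate 3 in edgeR. The cannabinoid receptor gene Cnr1 passed narrowly (log2 fold change 0.73, adjusted p = 0.0466; lost in 6 of the 8, up to 0.154 without WT replicate 3). Of 29 glutamate receptor and auxiliary genes 2 rose: Slc17a7, the vesicular glutamate transporter VGLUT1, at 38.7, 57.3, 51.7 and 37.5 CPM in KO, against 16.9, 24.9, 18.9 and 28.4 CPM in WT (log2 fold change of 1.05 with an SE of 0.18 and adjusted p = 0.00586), and Gria4 (log2 fold change 0.93; lost in 7 of the 8, up to 0.141 without WT replicate 3). Synaptic vesicle genes had no call among 46 tested (39 above 0, median 0.24).

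Ion channel genes were called in 5 of 70 tested (7.14%, beside 1.76% of all tested genes), 3 higher and 2 lower, with a median of 0.30. The 3 that rose were Kcnn2, Kcnd3 and Scn8a. The calls of Kcnn2 and Scn8a held with the cell cycle level as a covariate and without KO replicate 4. With the mitochondrial share as a covariate 1 of the 5 calls held, that of Kcnc2, while Kcnh5 was at an adjusted p of 0.0668 in edgeR. Kcnh5, which encodes a voltage-gated potassium channel of the EAG family, was at 32.9, 30.6, 35 and 31.2 CPM in KO, against 47.8, 54.1, 49.5 and 44.7 CPM in WT. Kcnh5 had a log2 fold change of -0.60 with an SE of 0.10 and adjusted p = 0.00736 in edgeR. Kcnc2, a Kv3 channel gene, also fell (log2 fold change -1.09, adjusted p = 0.0247; lost in 4 of the 8 fits that left out 1 library, up to 0.0974 without WT replicate 1). Kcnd3, a gene of A-type potassium channels, was higher by 0.45 (adjusted p = 0.0369; lost in 6 of the 8, up to 0.134 without WT replicate 1). Kcnv1, a silent modifier subunit outside the list, had a large fold change at very low counts, with 2.17, 1.82, 3.03 and 6.19 CPM in KO, against 0.00, 0.278, 0.156 and 0.825 CPM in WT (log2 fold change of 3.33 with an SE of 0.63 and adjusted p = 0.0121); 1 WT library had no read, so the size depends on the fit's prior, and the call was lost without WT replicate 3 (adjusted p = 0.0551).

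Few regulators of phosphatases and small GTPases were called, some with large changes. Ppp1r14c, which encodes an inhibitor of protein phosphatase 1, was at 9.96, 14.6, 20.3 and 19 CPM in KO, against 2.08, 1.95, 1.09 and 3.57 CPM in WT. Ppp1r14c had a log2 fold change of 2.85 with an SE of 0.30 and adjusted p = 0.000128 in edgeR. Rcan2, an inhibitor of the calcium-dependent phosphatase calcineurin, was at 57.5, 37.7, 32.6 and 39.4 CPM in KO, against 10.8, 12.4, 4.99 and 10.2 CPM in WT. Rcan2 had a log2 fold change of 2.12 with an SE of 0.23 and adjusted p = 0.000138. Nfatc2, a transcription factor that calcineurin activates, moved the other way, at 30, 21.6, 19.8 and 22.2 CPM in KO, against 57.3, 46.6, 38.9 and 36.8 CPM in WT. Nfatc2 had a log2 fold change of -0.94 with an SE of 0.16 and adjusted p = 0.00644. Nfatc4 fell less firmly (log2 fold change -0.68, adjusted p = 0.0466; lost in 6 of the 8 fits that left out 1 library, up to 0.141 without WT replicate 2). In all, 2 rose and 2 fell of 43 tested phosphatase and calcineurin genes (median 0.10), and the calls of Nfatc2 and Nfatc4 were lost with the mitochondrial share as a covariate. Of 69 tested small GTPase genes 2 rose (median 0.15): Rassf10, which encodes a Ras association domain protein, at 6.13, 3.36, 5.11 and 2.5 CPM in KO, against 0.909, 0.278, 0.312 and 0.275 CPM in WT (log2 fold change of 3.19 with an SE of 0.46 and adjusted p = 0.00175), and Tiam2, an exchange factor for Rac, at 409 ± 34.2 CPM in KO and 249.9 ± 41.7 CPM in WT (SD, n = 4 each; log2 fold change of 0.71 with an SE of 0.12 and adjusted p = 0.00418). The exons of Tiam2 overlap 142 bases of Tfb1m on the other strand, which was called higher too. The WT level of Rassf10 was very low, so the size of its change depends on the fit's prior. Ptprk, a receptor tyrosine phosphatase gene, was lower (log2 fold change -0.50, adjusted p = 0.0199; lost in 3 of the 8, up to 0.0778 without KO replicate 2).

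Cytoskeletal genes that passed mostly fell: 4 lower and 1 higher of 71 tested, with a median of 0.02. Palmd, which encodes the membrane-associated protein palmdelphin, was at 32.6, 34, 43.6 and 37.5 CPM in KO, against 63.4, 65.3, 84.1 and 67.3 CPM in WT. Palmd had a log2 fold change of -0.92 with an SE of 0.13 and adjusted p = 0.00119 in edgeR. Agbl4, which encodes a carboxypeptidase that trims glutamates from tubulin, was at 2.94, 2.66, 2.87 and 2.5 CPM in KO, against 12.7, 6.53, 14.2 and 6.87 CPM in WT. Agbl4 had a log2 fold change of -1.87 with an SE of 0.28 and adjusted p = 0.00284. WT replicates 1 and 3 were higher than WT replicates 2 and 4 for Agbl4, as for Smoc1 and Pbx3, and all stood above the KO libraries. Fign, which encodes a microtubule-severing ATPase, was lower at a low level (log2 fold change -1.66, adjusted p = 0.0275; lost in 5 of the 8 fits that left out 1 library, up to 0.118 without WT replicate 1). Of 35 kinesins, Kif26b fell and Kif6 rose, the second at 6.38, 4.91, 6.39 and 4.34 CPM in KO, against 0.909, 1.81, 0.624 and 1.79 CPM in WT. Kif6 had a log2 fold change of 2.08 with an SE of 0.33 and adjusted p = 0.00412.

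Among other genes named for their change or their level, Slc35f1, an orphan gene of the nucleotide sugar transporter family, was at 257, 211, 243 and 253 CPM in KO, against 101, 85.2, 91.8 and 101 CPM in WT. Slc35f1 had a log2 fold change of 1.35 with an SE of 0.10 and adjusted p = 2.72e-06 in edgeR. Sypl2, which encodes a synaptophysin-like membrane protein, was at 74.7, 50, 70.1 and 48.5 CPM in KO, against 33.5, 32.7, 26.4 and 25 CPM in WT. Sypl2 had a log2 fold change of 1.05 with an SE of 0.16 and adjusted p = 0.0026. Sorl1, the gene of an endosomal sorting receptor, was at 108, 142, 163 and 145 CPM in KO, against 219, 261, 375 and 274 CPM in WT (log2 fold change of -1.01 with an SE of 0.15 and adjusted p = 0.00278); 185 of its exonic bases are shared with Gm16214 on the other strand, which was called lower as well. Ank2, which encodes the membrane adaptor ankyrin-B, was at 479.8 ± 77.7 CPM in KO and 278 ± 41.9 CPM in WT (SD, n = 4 each; log2 fold change of 0.79 with an SE of 0.13 and adjusted p = 0.00412). Sez6, which encodes a neuronal membrane protein, was at 773 ± 110.1 CPM in KO and 529.9 ± 80.1 CPM in WT (adjusted p = 0.0387; lost in 5 of the 8 fits that left out 1 library, up to 0.14 without WT replicate 3). Over all 223 called genes, 26 share exonic bases with another tested gene, 25 of them on the opposite strand, and for these reads of the 2 genes may be mixed.

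Set beside PAX6+ cells, where 517 of 14212 tested genes (3.64%) were called, 2.45% higher and 1.19% lower, most calls of TBR2+ cells had the same direction. Of the 223 called genes 204 were tested in PAX6+ cells, and 170 of these (83.3%) had the same sign, beside 62.2% of all 12253 genes tested in both. Both populations called 66 genes in the same direction, 46 higher and 20 lower, which is 29.6% of the TBR2+ calls and 12.8% of the PAX6+ calls. They called 3 genes in opposite directions: Zfhx4, Pdgfc and Chst2, the last named after its values were seen. The median log2 fold change of the TBR2+ calls was smaller in PAX6+ cells: the genes that rose stood at 0.80 in TBR2+ and 0.36 in PAX6+ cells, and those that fell at -0.75 and -0.32. These medians are not a test of a weaker effect in PAX6+ cells, since the genes were chosen by their call in TBR2+ cells.

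The difference of the genotype effect itself, tested as an interaction in a fit of both populations, was called for 89 of 14548 genes (0.612%; 0.213% above 0 and 0.399% below), 30 of them among the 223 called in TBR2+ cells. Without KO TBR2+ replicate 1 the count was 137. Whether libraries of different populations came from the same embryos is not given in the sources used here. Some genes fell in TBR2+ cells and were not called in PAX6+ cells, where some had the opposite sign. Akap12, with 20.3 CPM in KO and 51.1 CPM in WT TBR2+ cells, was at 92.3 ± 14.9 CPM in KO PAX6+ and 68 ± 8.24 CPM in WT PAX6+ (SD, n = 4 each; interaction log2 -1.77, SE 0.19, adjusted p = 2.58e-05 in edgeR). Pbx3 was at 13.6 ± 1.98 CPM in KO PAX6+ and 17.9 ± 2.12 CPM in WT PAX6+ (interaction -1.76, SE 0.27, adjusted p = 0.0013). Nrarp was at 61 ± 4.54 CPM in KO PAX6+ and 70.1 ± 6.11 CPM in WT PAX6+ (interaction -0.95, SE 0.18, adjusted p = 0.00764), and Kif26b, Cux2, Hmcn1 and Cdk6 were not called in PAX6+ cells either, with log2 fold changes there of 0.31, 0.65, -0.25 and 0.22 and interactions of -1.24, -1.24, -1.29 and -0.92. The interaction of Cux2 was lost in 8 of 16 fits that left out 1 library (adjusted p up to 0.0843 without KO PAX6+ replicate 3), that of Hmcn1 in 9 (up to 0.101 without KO TBR2+ replicate 3) and that of Cdk6 in 11 (up to 0.0874 without KO TBR2+ replicate 2). Zfhx4, lower in KO TBR2+ cells, was higher in KO PAX6+ cells, at 455 ± 46.7 CPM in KO PAX6+ and 329.8 ± 49.7 CPM in WT PAX6+ (interaction -1.20, SE 0.18, adjusted p = 0.00119).

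Other genes rose more in TBR2+ than in PAX6+ cells. Slc35f1, with a log2 fold change of 0.21 in PAX6+ cells that was not called, was at 388 ± 47.2 CPM in KO PAX6+ and 335 ± 36.6 CPM in WT PAX6+ (SD, n = 4 each; interaction log2 1.14, SE 0.15, adjusted p = 0.000305 in edgeR). Sypl2 (interaction 1.61, SE 0.24, adjusted p = 0.000685) and Tle1 (0.82, SE 0.15, adjusted p = 0.00715) had log2 fold changes of -0.55 and -0.04 in PAX6+ cells, neither called, with 8.24 and 12.1 CPM in KO and WT PAX6+ for Sypl2 and 141 and 144 CPM in KO and WT PAX6+ for Tle1. Rassf10 had the largest interaction among the 30, with 1.45 ± 0.582 CPM in KO PAX6+ and 2.94 ± 0.877 CPM in WT PAX6+ (interaction 4.21, SE 0.62, adjusted p = 0.000685 in edgeR). Its WT TBR2+ libraries were at 0.275 to 0.909 CPM, so the size of this interaction depends on the fit's prior. Daam2, Ptx3 and Veph1 had log2 fold changes above 0 in both populations, larger in TBR2+ cells: the log2 fold changes were 2.41, 3.43 and 2.59 in TBR2+ and 0.76, 2.24 and 1.33 in PAX6+ cells. The interaction was 1.66, SE 0.33, adjusted p = 0.0122 for Daam2, 1.20, SE 0.27, adjusted p = 0.0401 for Ptx3 and 1.27, SE 0.29, adjusted p = 0.0384 for Veph1. It was lost in 12 of 16 fits that left out 1 library for Ptx3 (up to 0.127 without WT TBR2+ replicate 2) and in 9 for Veph1 (up to 0.114, also without WT TBR2+ replicate 2). Ptx3 stood at 197 ± 35.4 CPM in KO PAX6+ and 41.7 ± 8.02 CPM in WT PAX6+, and Veph1 at 224 ± 33 CPM in KO PAX6+ and 89.1 ± 12.5 CPM in WT PAX6+.

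Another set rose more in PAX6+ than in TBR2+ cells. Gabra2 was at 95.4 ± 10.1 CPM in KO PAX6+ and 5.03 ± 2.84 CPM in WT PAX6+ (SD, n = 4 each; interaction log2 -2.48, SE 0.34, adjusted p = 0.000305 in edgeR), beside 40.1 CPM in KO and 11.9 CPM in WT TBR2+ cells. Sema6d was at 161 ± 41.4 CPM in KO PAX6+ and 28.6 ± 7.02 CPM in WT PAX6+ (interaction -1.87, SE 0.25, adjusted p = 0.000305), and Itga6 at 438 ± 42.4 CPM in KO PAX6+ and 128 ± 12.1 CPM in WT PAX6+ (interaction -0.81, SE 0.15, adjusted p = 0.00857). Palmd fell further in PAX6+ cells, at 7.9 ± 2.6 CPM in KO PAX6+ and 38.5 ± 9.17 CPM in WT PAX6+ (interaction 1.36, SE 0.26, adjusted p = 0.0119). For Pdzrn3, Fosl2, Smoc1 and Dscaml1 the interaction was not called, and the log2 fold changes in TBR2+ and PAX6+ cells stood at 2.07 and 2.39, 2.42 and 1.74, -3.49 and -2.80, and -1.96 and -2.23. Thrb, Oprd1 and Ppp1r14c did not pass the filter on low counts in the fit of PAX6+ cells alone, so no log2 fold change there is given for them.

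**Figure D5:**
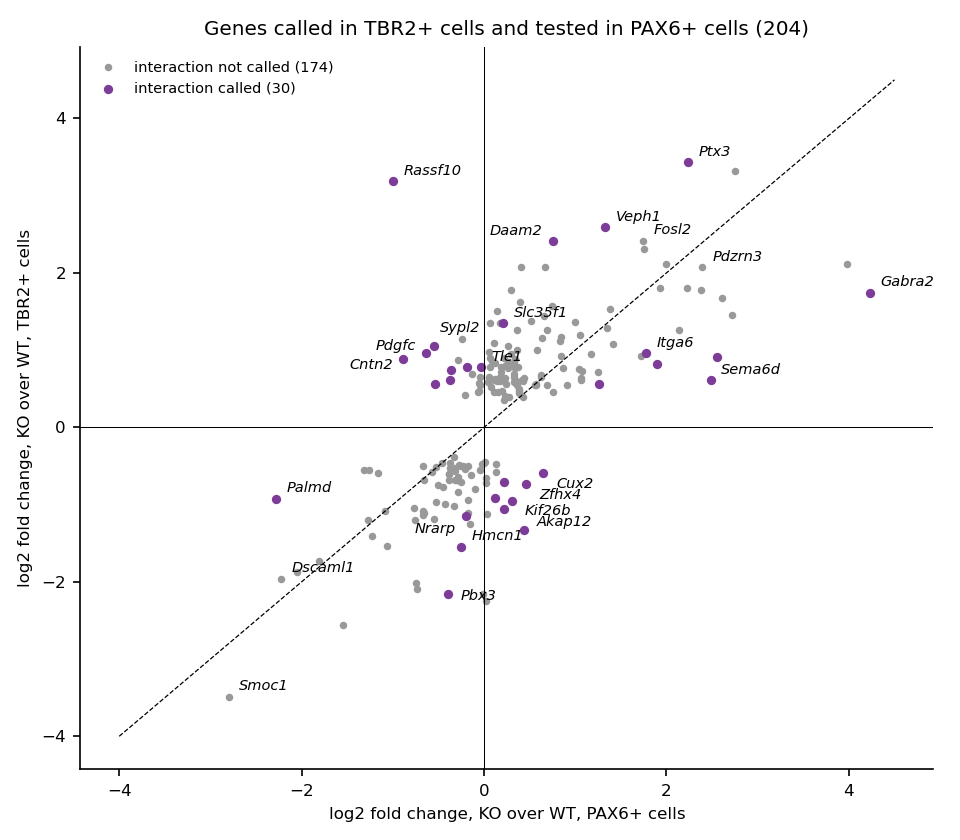
Log2 fold change of KO over WT in TBR2+ cells (y axis) against that in PAX6+ cells (x axis) for the 204 genes called in TBR2+ cells and tested in PAX6+ cells, with the 30 genes whose interaction was called in purple and the line of equal change dashed. The genes were selected by their call on the y axis; Pbx3, Akap12, Rassf10 and Slc35f1 lie near or across 0 on the x axis, and Gabra2 and Sema6d lie far to the right of the line.

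In PAX6-TBR2- cells 1 gene of 12928 tested (0.00774%) was called, Ppp1r14c, which rose there too (log2 fold change 1.58, against 2.85 in TBR2+ cells). Of the 204 genes called in TBR2+ cells and tested in PAX6-TBR2- cells, 174 (85.3%) had the same sign, beside 64.1% of all genes tested in both. The difference of the genotype effect was called for 7 of 13725 genes (0.051%; 0.0291% above 0 and 0.0219% below), and 6 of these were called in TBR2+ cells. The count was 4 without WT TBR2+ replicate 1 and 3 without WT TBR2+ replicate 3, without KO TBR2+ replicate 2 or without KO PAX6-TBR2- replicate 3. These tests use the same TBR2+ libraries as those against PAX6+ cells. Pdzrn3 was at 227 ± 66.5 CPM in KO PAX6-TBR2- and 225 ± 57.2 CPM in WT PAX6-TBR2- (SD, n = 4 each; interaction log2 2.06, SE 0.26, adjusted p = 0.00136 in edgeR). Thus KO TBR2+ cells, at 346 CPM, stood above PAX6-TBR2- cells of both genotypes, and WT TBR2+ cells, at 82.2 CPM, below them, with each pair scaled within its own population. Fosl2 followed the same order, at 54.1 ± 12 CPM in KO PAX6-TBR2- and 49.8 ± 16 CPM in WT PAX6-TBR2- (interaction 2.28, SE 0.33, adjusted p = 0.00798). Dscaml1 was at 86.9 ± 22.5 CPM in KO PAX6-TBR2- and 92.3 ± 28.7 CPM in WT PAX6-TBR2- (interaction -1.86, SE 0.29, adjusted p = 0.0123), so its WT level was alike in the 2 populations and its KO level was not. Pbx3 (-2.19, SE 0.36, adjusted p = 0.017) and Akap12 (-1.26, SE 0.23, adjusted p = 0.0387) were also called, but were lost in 5 and 13 of 16 fits that left out 1 library, up to 0.0784 and 0.110 without KO PAX6-TBR2- replicate 3.

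The called genes can also be placed by their level in the WT libraries of the other populations, which the call did not use. CPM here are relative to the non-mitochondrial counts, and a gene was placed with a population when its WT libraries did not overlap and its mean was at least 2-fold higher. Of the 139 genes that rose, 53 (38.1%) were higher in WT PAX6-TBR2- than in WT PAX6+ cells and 29 (20.9%) were higher in WT PAX6+ cells. Of the 84 that fell, 23 (27.4%) were higher in WT PAX6-TBR2- and 30 (35.7%) in WT PAX6+ cells. Over all tested genes the shares were 13.95% and 21.3%. Genes that rose thus included both neuronal ones, such as Sox5 (1758 CPM in WT PAX6-TBR2- and 134 CPM in WT PAX6+), Cntn2 (2906 and 18.9 CPM) and Slc17a7 (57.9 and 0.438 CPM), and radial glial ones, such as Ptx3 (4.18 and 50.5 CPM), Veph1 (4.61 and 108 CPM) and Daam2 (4.25 and 56.3 CPM). Genes that fell included Robo2 (853 and 29.5 CPM), Unc5d (143 and 13.5 CPM) and Arfgef3 (104 and 11.2 CPM) on the neuronal side. On the radial glial side they included Zfhx4 (38.9 CPM in WT PAX6-TBR2- and 400.5 CPM in WT PAX6+), Nrarp (6.73 and 85.0 CPM) and Smoc1 (6.295 and 39.0 CPM). Thrb was low in both, at 1.29 CPM in WT PAX6-TBR2- and 0.962 CPM in WT PAX6+ cells.

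Among the 223 called genes, 81 belonged to at least 1 of the gene lists and 142 to none. Of the 91 called genes named with a value here, 46 were called in every one of the 19 other fits, and 55 in all 8 fits that left out 1 library; none changed sign in any of the 19.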

How the data were processed

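Per the labels' protocols, RNA of sorted cells was extracted with a RecoverAll kit, amplified by single primer isothermal amplification (Ovation RNA-seq V2) and made into libraries with Ovation Ultralow V2. No molecular identifiers are mentioned. Tools named are featureCounts, STAR, cutadapt, FastQC and DESeq2, and the build is mm10, per the submitters' processing notes; neither annotation nor strandedness is stated there. The authors deposited raw counts per gene, with 2 lane columns per library that were summed here, and normalized signal values from which whole reads were recovered (100% of values whole within 1e-06; 1.48 and 1.47 times the raw counts in KO and WT TBR2+; 232 genes called); 8 normalized columns of PAX6-TBR2- cells were not used. Of 39017 rows 37693 were placed with GENCODE M21 (GRCm38); the rest held 0.199% to 0.235% of each TBR2+ library. KO and WT were compared by a two-sided quasi-likelihood F test after filterByExpr and TMM (edgeR 4.0.16, R 4.3.3), with Benjamini-Hochberg adjustment; SE is the log2 fold change over the root of F. DESeq2 1.42.0 and limma 3.58.1 were alternatives. Scripts were tested on simulated data. The members, lists and tests were chosen with earlier results of these data known. Named genes are Prdm16, Eomes, Pax6 and Emx1, and the 12 largest changes and the 10 highest levels per direction. The largest changes needed 5 CPM in the higher group and KO and WT libraries that did not overlap. Also named are up to 4 called genes per list and 3 per family, and 6 by interaction. Integrins, laminins, NFAT genes and interactions beyond the 6 were chosen after their values were seen.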

Additional observations from a re-analysis of the deposited data

Results flagged for a closer look

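Samples that stood apart from the other 3 of their group were looked for in 298 groups of 4 libraries, the named genes and list sums, and 13 did; chance flags about 1 in 20 groups. In WT libraries these were Prdm16 in replicate 3 (67.6 CPM, the others 39.2 to 42.7), Fosl2 in replicate 4 (20.1 CPM, the others 9.22 to 10.6), Cux2 in replicate 3 (88.3 CPM, the others 72.7 to 73.7), Penk in replicate 2 (2.085 CPM, the others 1.404 to 1.512) and Rassf10 in replicate 1 (0.909 CPM, the others 0.275 to 0.312). In KO libraries they were Cdh4 in replicate 2 (60.4 CPM, the others 49.9 to 51.1), Igsf11 in replicate 1 (32.7 CPM, the others 21.4 to 22.6), Kcnd3 in replicate 2 (62.8 CPM, the others 66.4 to 66.9) and Kif26b in replicate 1 (129 CPM, the others 85.5 to 92.0). Among list sums, deep-layer neuron genes stood high in KO replicate 4 (4688 CPM, the others 3921 to 3946), choroid plexus and hem genes in KO replicate 1 (23.8 CPM, the others 19.1 to 19.3) and radial glia genes in WT replicate 1 (3019 CPM, the others 2378 to 2453), and small GTPase genes stood low in KO replicate 2 (3777 CPM, the others 4274 to 4349).

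The genotype effect differed between populations, by edgeR's interaction test, in 22 named genes against PAX6+ cells. The log2 effect in TBR2+ minus that in PAX6+ cells was above 0 for Ptx3 (1.2), Slc35f1 (1.14), Veph1 (1.27), Daam2 (1.66), Palmd (1.36), Rassf10 (4.21), Sypl2 (1.61), Tle1 (0.82), Cntn2 (1.79), Pdgfc (1.6), Crim1 (1.11). It was below 0 for Akap12 (-1.77), Pbx3 (-1.76), Gabra2 (-2.48), Itga6 (-0.81), Nrarp (-0.95), Kif26b (-1.24), Hmcn1 (-1.29), Zfhx4 (-1.2), Cux2 (-1.24), Cdk6 (-0.92), Sema6d (-1.87). Against PAX6-TBR2- cells 5 named genes differed: Pdzrn3 (2.06), Dscaml1 (-1.86), Fosl2 (2.28), Akap12 (-1.26), Pbx3 (-2.19). The interaction of Cntn2 was lost in 12 of 16 fits that left out 1 library (adjusted p up to 0.13 without WT PAX6+ replicate 3), and that of Crim1 in 6 (up to 0.0752, also without WT PAX6+ replicate 3).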

How the results depend on the processing

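The 223 calls between KO and WT TBR2+ cells became 728 with no filter on low counts, 363 with DESeq2, 720 with the replicate number as a block, 128 with the mitochondrial share as a covariate and 90 at an adjusted p under 0.01. They ranged from 121 to 420 when 1 library was left out. Other fits gave 187 to 254 (DESeq2 size factors, another low-count filter, limma, no mitochondrial genes, all 24 libraries, recovered reads, and the cell cycle level as a covariate, which was chosen after seeing the data). The share of higher calls was 62.3% and lay between 59.9% and 70.5% in the fits that left out no library. The 89 interactions against PAX6+ cells became 329 with no filter, 160 with DESeq2, 323 with the replicate block and 71 to 137 without 1 library. The 7 against PAX6-TBR2- cells became 126 with no filter, 28 with DESeq2, 210.0 with the replicate block and 3 to 10 without 1 library. The numbers are not known to pair the libraries: same-numbered KO and WT libraries had correlated deviations of 0.410, 0.0597, 0.0446 and 0.368, and KO replicate 2 was closest to WT replicate 1 and KO replicate 3 to WT replicate 4. Of the 91 named calls none changed sign, 46 were kept in every alternative, and 25 were lost in at least 4 fits that left out 1 library. Log2 fold changes of Prdm16, Eomes and Pax6, none of them called, were 0.18, 0.054 and 0.22 with the cell cycle covariate, against values below 0 without it. Leaving out 1 library gave -0.18 to 0.13 for Prdm16 (above 0 when WT replicate 3 was out, and 0.0026 when KO replicate 4 was) and -0.21 to 0.069 for Pax6 (0.069 without KO replicate 4, 0.05 without WT replicate 1, and 0.0024 when KO replicate 3 was out). The cause was not tested.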

Other observations

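Counts for further lists in TBR2+ cells, by edgeR's test over all genes, stand beside 1.76% called of all genes tested. Of 23 tested basic helix-loop-helix genes of neuronal differentiation none was called (15 above 0, median log2 fold change 0.07). Of 47 genes of PRDM16 partners and histone methylation 1 rose, Tle1 (28 above 0, median 0.03). Of 38 cortical patterning factors 4 rose and 0 fell, Lmo3, Ebf1, Rorb and Dach2 (10.5%), and none of the 4 calls held with the mitochondrial share as a covariate. Oxidative stress defence genes had no call among 29 tested (14 above 0, median -0.02). Their summed level was 540.1 to 674 CPM in KO and 695 to 814 CPM in WT of the library total, with no overlap, and 889 to 1027 CPM in KO and 1014 to 1170.0 CPM in WT over the non-mitochondrial counts, with overlap. The p53 response list had none among 15 (median -0.04), and hypoxia and glycolysis genes none among 25 (median 0.02). The Cajal-Retzius list had no call among 11 tested genes, of which 10 were above 0 (median 0.40); its summed level overlapped between the groups. Interneuron (7 tested), endothelial and mural (5), meningeal (3), erythroid (3), choroid plexus and hem (4) and glial precursor genes (5) had no call. Of 39 tested genes of BMP and TGF-beta signalling 1 rose, Crim1, and 2 fell, Smoc1 and Fstl5 (7.69%); Smoc1 and Fstl5 held with the mitochondrial share as a covariate.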
